A study of Homo sapiens with 3 samples.

Results

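Transcript levels of 9 genes of the major histocompatibility complex (MHC) class I antigen presentation pathway were examined in untreated MCF10A cells, an immortal but non-tumorigenic human line from the breast epithelium. The 9 genes were HLA-B, HLA-C, HLA-E, HLA-F, B2M, TAP1, TAP2, TAPBP and NLRC5. They were chosen by name, with earlier results of these data known. Through the Ensembl identifiers that GENCODE release 44 gives these symbols, all 9 were found among the 62754 genes of the deposited table. The study sequenced RNA of 3 replicates, all of batch 1 and of a single condition, so no groups could be compared. All cells carried an empty vector of the Retro-X Tet-One inducible system without a gene of interest, had been selected with puromycin and was harvested without doxycycline. Libraries were made from 300 ng of total RNA after removal of ribosomal RNA. The labels do not say whether the replicates came from separate cultures, so the spread between them may be technical.

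Class I molecules show peptides from inside the cell to CD8+ T cells and are read by natural killer cells as well. A heavy chain, encoded by an HLA gene, pairs with the light chain beta-2 microglobulin (B2M) in the endoplasmic reticulum. Peptides cut by the proteasome are carried into that compartment by the TAP1-TAP2 transporter, and tapasin (TAPBP) holds the empty heavy chain at the transporter until a peptide is bound. NLRC5 is a transactivator that acts on class I promoters through the RFX complex, CREB/ATF factors and NF-Y, which bind a conserved promoter module known as SXY. Interferons raise the genes of this pathway in most cell types through the IRF family, and epithelial cells carry class I at a constitutive level.

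Levels are given in TPM, which divides a gene's reads by its length and brings every replicate to the same total. All 9 genes had a mean of at least 1 TPM, the level at which the study called a gene expressed, and all 9 lay above it in every replicate, so that 0 of 9 had replicates on both sides of it, against 6.5% of all genes. The mean reached that level for 24.9% of all genes and for 56.6% of protein-coding genes, a term that leaves out the mitochondrial genome here and below. The median of the 9 means was 55.3 TPM, against 24.8 TPM over the 11347 protein-coding genes of at least 1 TPM, and 6 of the 9 genes were above that second value. Summed, the 9 genes held 1030, 999 and 918 TPM in replicates 1, 2 and 3, or 0.0982% ± 0.00580 (SD, n = 3) of all transcripts in this unit. In such bulk libraries, fewer cells that express a gene and less of its RNA per cell cannot be told apart. Of the markers of breast epithelium, 6 of 6 basal epithelial markers and 5 of 7 luminal markers reached 1 TPM, with KRT5 at 6612 TPM. The luminal markers KRT19 and ESR1 did not, and had almost no reads. Of the leukocyte markers 1 of 12 did (CD14, 1.96 TPM), with the pan-leukocyte gene PTPRC at 0.0728 TPM, 5 markers at 0 reads in every replicate and a summed level of 4.27, 3.59 and 1.99 TPM. Of the endothelial markers 1 of 5 did (PECAM1, 1.77 TPM), and of the fibroblast markers 2 of 6 did (DCN, 9.05 TPM, and COL1A1, 4.96 TPM).

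**Figure D1:**
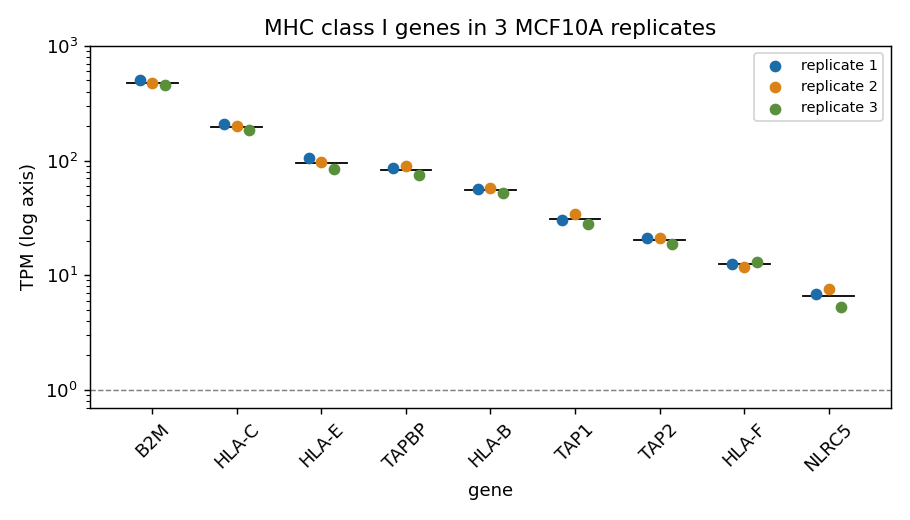
TPM (log axis) of the 9 class I genes in each of the 3 replicates, with the mean as a bar and 1 TPM as a dashed line. The levels run from 480 TPM for B2M to 6.58 TPM for NLRC5, and the replicates of a gene lie close together on this scale.

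The promoters of these genes are shown because NLRC5, NF-kB and the interferon-responsive IRF factors are known to act on genes of this pathway through promoter elements. For 7 of the 9 genes RefSeq (assembly GRCh38.p14) gave a promoter, and the 200 bases before the transcript start are printed 5′ to 3′ on the gene's strand. HLA-E and NLRC5 had no entry, and of the 2 starts of TAP1 that nearest the canonical transcript start was used. Capitals mark matches, on either strand, to the interferon-stimulated response element core (GAAA, 2 bases of any kind and GAAA again), the NF-kB consensus, the CREB/ATF half-site TGACG and the NF-Y core CCAAT. The windows lie at chr6:31357180-31357379 (minus strand) for HLA-B, chr6:31272093-31272292 (minus) for HLA-C, chr6:29723234-29723433 (plus) for HLA-F and chr15:44711317-44711516 (plus) for B2M. Those of the loading genes lie at chr6:32853705-32853904 (minus) for TAP1, chr6:32838740-32838939 (minus) for TAP2 and chr6:33314079-33314278 (minus) for TAPBP. No window overlaps an exon of the canonical transcript of its gene.
HLA-B: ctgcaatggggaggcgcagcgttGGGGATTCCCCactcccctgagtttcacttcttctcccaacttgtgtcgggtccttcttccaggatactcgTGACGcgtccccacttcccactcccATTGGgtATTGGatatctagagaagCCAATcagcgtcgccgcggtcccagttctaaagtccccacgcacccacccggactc
HLA-C: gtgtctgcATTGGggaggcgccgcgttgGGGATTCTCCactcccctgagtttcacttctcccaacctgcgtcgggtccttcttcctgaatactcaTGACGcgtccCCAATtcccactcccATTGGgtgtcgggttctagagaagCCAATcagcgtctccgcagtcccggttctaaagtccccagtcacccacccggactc
HLA-F: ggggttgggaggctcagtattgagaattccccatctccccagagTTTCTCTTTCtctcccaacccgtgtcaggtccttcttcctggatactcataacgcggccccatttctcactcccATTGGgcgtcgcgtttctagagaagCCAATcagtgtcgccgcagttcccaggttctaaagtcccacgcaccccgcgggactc
B2M: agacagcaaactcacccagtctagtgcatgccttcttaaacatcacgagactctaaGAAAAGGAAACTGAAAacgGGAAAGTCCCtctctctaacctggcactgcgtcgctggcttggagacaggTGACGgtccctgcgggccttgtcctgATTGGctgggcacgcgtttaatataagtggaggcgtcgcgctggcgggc
TAP1: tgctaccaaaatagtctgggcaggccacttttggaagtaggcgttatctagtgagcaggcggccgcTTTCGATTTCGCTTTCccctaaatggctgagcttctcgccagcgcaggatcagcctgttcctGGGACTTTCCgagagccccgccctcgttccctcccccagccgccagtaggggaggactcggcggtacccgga
TAP2: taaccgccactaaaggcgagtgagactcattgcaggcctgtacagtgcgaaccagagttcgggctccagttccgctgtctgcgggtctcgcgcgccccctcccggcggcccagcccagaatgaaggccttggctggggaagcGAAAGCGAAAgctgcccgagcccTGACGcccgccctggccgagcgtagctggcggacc
TAPBP: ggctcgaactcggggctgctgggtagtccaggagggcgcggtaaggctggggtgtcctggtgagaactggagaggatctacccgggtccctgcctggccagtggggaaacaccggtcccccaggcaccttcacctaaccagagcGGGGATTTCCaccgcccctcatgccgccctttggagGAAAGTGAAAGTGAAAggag

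The 3 heavy chain promoters were alike, with 87.7% identical aligned positions between HLA-B and HLA-C, 80.8% between HLA-B and HLA-F and 78.7% between HLA-C and HLA-F. With positions counted from the start and given for the first base of a match, each of the 3 held CCAAT at -57 or -56 and again between -82 and -80. TGACG stood at -106 in HLA-B and at -105 in HLA-C, and HLA-F had none in its window. The B2M window held TGACG at -75 and CCAAT at -49, the same pair of motifs as HLA-B and HLA-C. The window of TAP2 held TGACG at -35 without a CCAAT match, and those of TAP1 and TAPBP held neither motif. TGACG was found in 4 of the 7 windows and in 18.4% of the 35116 promoters of the same length in the RefSeq table. CCAAT was also found in 4 of 7, against 28.0% of all promoters.

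Elements of the interferon and NF-kB responses were spread differently over the 7 promoters. The interferon-stimulated response element core was found in 5 of 7 windows (HLA-F, B2M, TAP1, TAP2 and TAPBP), against 2.40% of all promoters. In B2M, TAP1 and TAPBP it occurred as a pair of matches that overlap by 4 bases. The NF-kB consensus was found in 5 of 7 windows (HLA-B, HLA-C, B2M, TAP1 and TAPBP), against 4.21% of all promoters, and HLA-B held it as 2 overlapping matches. B2M, TAP1 and TAPBP thus held both elements, HLA-B and HLA-C the NF-kB consensus without the response element core, and HLA-F and TAP2 the reverse. The gamma-activated site TTCNNNGAA was found in 0 of 7 windows and in 5.09% of all promoters. These are matches of letters in a short window and were not tested for binding. Only the exact patterns were sought, so a window without a match may still hold a variant form of the element.

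**Figure D2:**
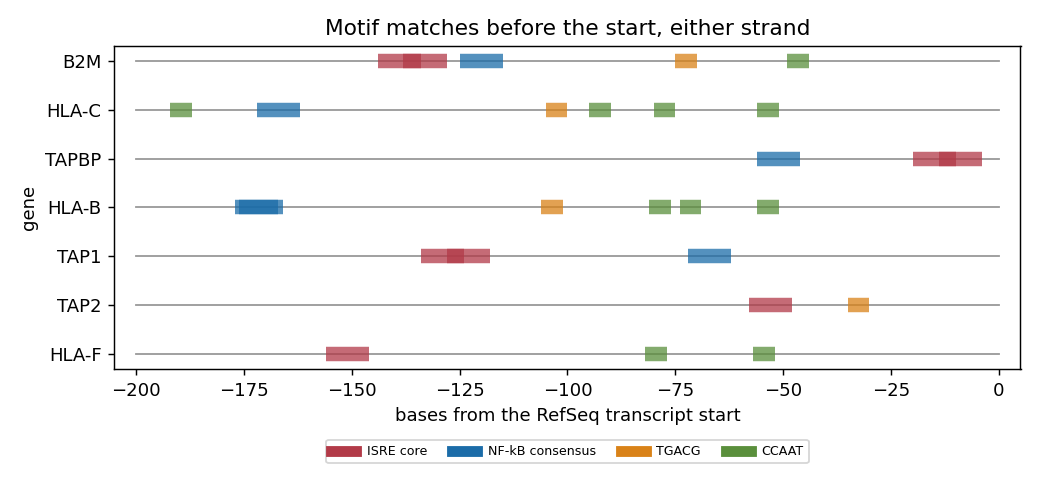
Positions of motif matches in the 200 bases before the RefSeq start of 7 class I genes, in bases from the start, with a colour for each motif. The CCAAT matches of HLA-B, HLA-C and HLA-F line up near -56 and -80, and B2M, TAP1 and TAPBP each hold an interferon-stimulated response element core and an NF-kB consensus.

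Among the heavy chains, HLA-C (ENSG00000204525, chr6:31268749-31272130 of hg38, minus strand), a classical class I molecule and the main ligand of killer cell immunoglobulin-like receptors, had the highest level. Its values in replicates 1, 2 and 3 were 207.8, 201.8 and 183.6 TPM, resting on 2052, 2049 and 1543 reads, with a mean of 198 ± 12.6 TPM (SD, n = 3). HLA-C alone made up 54.8% ± 0.317 of the summed TPM of the 4 heavy chain genes. Replicate 3 was the lowest, and no replicate of another heavy chain reached the level of HLA-C.

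HLA-E (ENSG00000204592, chr6:30489509-30494194, plus strand) encodes a non-classical heavy chain that presents leader peptides of other class I molecules to the NKG2A receptor of natural killer cells. Its levels were 104.8, 97.6 and 84.7 TPM, from 1403, 1343 and 965 reads, with a mean of 95.7 ± 10.2 TPM. The ratio of HLA-E to HLA-C was 0.483 ± 0.0215, and HLA-E was the lower gene of the pair in every replicate.

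HLA-B (ENSG00000234745, chr6:31353872-31367067, minus strand), the most polymorphic of the classical heavy chain genes, was measured at 56.5, 57.3 and 52.0 TPM from 1053, 1098 and 825 reads. Its mean of 55.3 ± 2.85 TPM was below those of HLA-C and HLA-E in the deposited values. The ratio of HLA-B to HLA-C was 0.272, 0.284 and 0.283, a spread that was small beside the difference between the genes. The HLA-B and HLA-C genes lie 81.7 kb apart.

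HLA-F (ENSG00000204642, chr6:29722775-29738528, plus strand), a non-classical heavy chain kept mostly inside the cell, was the lowest heavy chain of the 4. It was measured at 12.6, 11.8 and 13.1 TPM from 102, 98 and 90 reads, with a mean of 12.5 ± 0.653 TPM. HLA-C was 15.9 ± 1.63 times higher than HLA-F. Exons of antisense or overlapping genes on the opposite strand cover 42.0% of the canonical HLA-F transcript, and of these HLA-F-AS1 was at 2.62 TPM. Whether the counting used strand is not given in the sources used here.

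HLA-G, the heavy chain of the trophoblast, had 12 reads in all and a mean of 0.498 TPM. Of 10 class I pseudogenes 1 reached 1 TPM (HLA-H, 7.46 ± 1.03 TPM) and 6 had 0 reads, where 3 reads would correspond to between 0.554 and 11.7 TPM.

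Heavy chain genes are close paralogs, so reads can match more than a single gene. The coding sequences were 91.5% identical between HLA-B and HLA-C, 85.6% between HLA-B and HLA-E and 85.0% between HLA-C and HLA-E. Those of HLA-F were 67.9% to 70.3% identical to the others. The longest coding stretches that are letter for letter the same show how far a read must reach to tell 2 genes apart. HLA-B and HLA-C share 66 bases of exon 3, the exon of the second peptide-binding domain, at chr6:31356301-31356366 in HLA-B and chr6:31271207-31271272 in HLA-C. HLA-C and HLA-E share 75 bases of exon 4, the exon of the immunoglobulin-like domain, at chr6:31270378-31270452 in HLA-C and chr6:30491170-30491244 in HLA-E. Both are printed below from the genome on the strand of the genes.
HLA-B and HLA-C: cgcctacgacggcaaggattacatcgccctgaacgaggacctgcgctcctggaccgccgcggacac
HLA-C and HLA-E: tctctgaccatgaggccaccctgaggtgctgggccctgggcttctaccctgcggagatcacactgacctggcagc

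Of the 50-base windows of the canonical transcripts, 2.56% of those of HLA-B, 6.76% of HLA-C, 6.16% of HLA-E and 1.89% of HLA-F occurred in a gene elsewhere in the genome. With windows of 100 bases these shares fell to 0% for HLA-B and HLA-F, 0.277% for HLA-C and 0.612% for HLA-E. The shares were 0% for B2M and NLRC5 at both window lengths. Whether the mapped genome held alternative HLA haplotypes is not given in the sources used here. The effect of the alleles of MCF10A cells on mapping was not tested.

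The light chain gene B2M (ENSG00000166710, chr15:44711358-44718851, plus strand) had the highest level of the 9 genes. It was measured at 503.5, 478.0 and 457.5 TPM from 6178, 6028 and 4776 reads, with a mean of 480 ± 23.1 TPM. This placed it at rank 220 of the protein-coding genes outside the mitochondrial genome, above 98.1% of those expressed. B2M and NLRC5 are the members outside chromosome 6, where the other 7 genes lie within 3.59 Mb. Set against the summed TPM of HLA-B, HLA-C, HLA-E and HLA-F (381.6, 368.5 and 333.4 TPM), B2M was 1.32, 1.30 and 1.37 times higher. The mean ratio was 1.33 ± 0.0386.

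The deposited TPM rests on the length of the longest annotated transcript of each gene, and that choice moved B2M and HLA-B the most. The longest B2M transcript has 2329 bases and the canonical transcript, the representative that GENCODE marks, 943 bases. For HLA-B these lengths were 3547 and 1536 bases. With the same reads divided by the canonical length in all genes, B2M was at 969 ± 36.96 TPM, 2.02-fold the deposited value, and HLA-B at 104 ± 4.06 TPM, 1.89-fold. HLA-C, with lengths of 1880 and 1542 bases, stayed at 197 ± 10.1 TPM. HLA-E, whose canonical transcript of 2548 bases is also its longest, was at 77.9 ± 7.40 TPM on this scale. HLA-E, HLA-F, TAP1, TAP2 and NLRC5 each fell by more than the SD of their deposited values, and HLA-C and TAPBP did not.

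The order of the heavy chains depended on the length used. HLA-B lay below HLA-E in every replicate in the deposited values and above it with canonical lengths, where HLA-B was also higher than TAPBP. The ratio of HLA-B to HLA-C became 0.530 ± 0.0128, and that of B2M to the 4 heavy chains 2.49 ± 0.0687. Over all expressed protein-coding genes the median ratio of longest to canonical length was 1, against 1.10 over the 9 class I genes, and 2 of the 9 moved by over 1.5-fold. Which transcripts the cells make was not measured by these files.

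**Figure D3:**
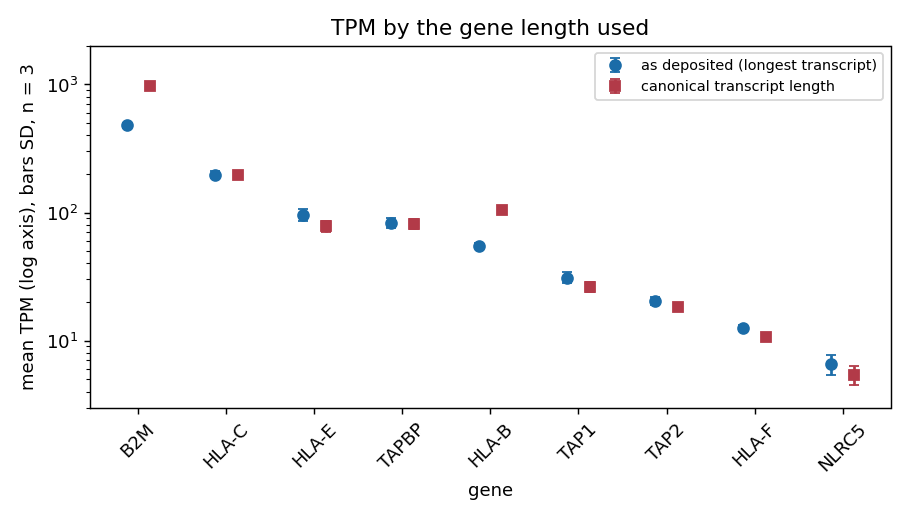
Mean TPM (log axis) of the 9 class I genes as deposited, with the length of the longest transcript, and with the canonical transcript length, with bars for the SD of 3 replicates. B2M moves from 480 to 969 TPM and HLA-B from 55.3 to 104 TPM. The other genes move less, with HLA-E going from 95.7 to 77.9 TPM.

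TAPBP, TAP1 and TAP2, which load peptides onto class I, were each at a lower level than HLA-C. TAPBP (ENSG00000231925, chr6:33299694-33314284, minus strand), which encodes tapasin, was the highest of the 3 at 86.1, 89.8 and 74.5 TPM, from 1873, 2008 and 1380 reads. Its mean was 83.5 ± 7.95 TPM, and 81.5 ± 6.78 TPM with canonical lengths. A non-coding gene on the opposite strand, at 1.74 TPM, covers 40.5% of the canonical transcript. TAPBPL, the tapasin-related editor of peptide-loaded molecules, was at 3.63 ± 0.751 TPM, and TAPBP was 23.9 ± 6.53 times higher.

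TAP1 (ENSG00000168394, chr6:32845209-32853816, minus strand) and TAP2 (ENSG00000204267, chr6:32821833-32838739, minus strand) encode the subunits of the peptide transporter and lie 6.47 kb apart. TAP1 was measured at 30.6, 34.4 and 28.2 TPM from 448, 518 and 352 reads, a mean of 31.1 ± 3.11 TPM. TAP2 was measured at 21.1, 21.2 and 18.7 TPM from 687, 710 and 518 reads, a mean of 20.3 ± 1.42 TPM. TAP1 was the higher gene in every replicate without overlap, by 1.45, 1.62 and 1.51 times, although TAP2 had more reads, with lengths of 2793 bases for the longest TAP1 transcript and 6194 bases for that of TAP2.

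The balance of the transporter subunits also depended on how bases shared between genes are treated. A readthrough gene (ENSG00000250264) that joins HLA-DOB and TAP2 covers 35.8% of the canonical TAP2 transcript on the same strand, and 96.9% of its own bases are shared with these genes. It had 0 reads in every replicate, and how reads on shared bases were counted is not given in the sources used here. With the shared bases left out of each length, TAP2 was at 28.0 TPM and the ratio of TAP1 to TAP2 was 0.926 ± 0.0530, so that TAP2 was the higher gene in every replicate. With canonical lengths alone the ratio was 1.45 ± 0.0827. TAP1 shares no base in this way, but 21.5% of its canonical transcript lies opposite PSMB8-AS1, a non-coding gene at 1.12 TPM.

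TAP1 starts 488 bases from PSMB9, which encodes a catalytic subunit of the immunoproteasome and is read in the other direction. PSMB9 was at 0.781, 0.898 and 0.834 TPM from 11, 13 and 10 reads, so that TAP1 was 37.1 ± 2.85 times higher, or 14.6 ± 1.12 times with canonical lengths. Neighbouring genes that start from the same stretch of DNA thus lay on different sides of 1 TPM in the deposited values. With canonical lengths PSMB9 was at 1.81 TPM.

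NLRC5 (ENSG00000140853, chr16:56989485-57083531, plus strand), the transactivator of class I genes, was the lowest of the 9. It was measured at 6.89, 7.55 and 5.30 TPM from 246, 277 and 161 reads, with a mean of 6.58 ± 1.16 TPM. Its level exceeded that of 19.4% of the expressed protein-coding genes. Its coefficient of variation of 17.6% was the highest of the 9, against 4.81% for B2M, and B2M was 74.2 ± 11.5 times higher than NLRC5.

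The listed factors with which NLRC5 works all reached 1 TPM, beside 56.6% of protein-coding genes. These 8 genes of the SXY module list ran from RFXAP at 5.63 ± 0.938 TPM to NFYC at 59.0 ± 12.9 TPM. The other RFX subunits, RFX5 and RFXANK, were at 46.1 ± 1.36 and 47.7 ± 5.88 TPM. CIITA, the related transactivator of class II genes, had 6 reads in all and a mean of 0.0250 TPM, which NLRC5 exceeded in every replicate.

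In the deposited values the order of the means was B2M, HLA-C, HLA-E, TAPBP, HLA-B, TAP1, TAP2, HLA-F and NLRC5. For 7 of the 8 neighbouring pairs all replicates of the higher gene lay above all replicates of the lower. The exception was HLA-E and TAPBP, a ratio of means of 1.15, whose ranges overlapped although HLA-E was the higher gene in each replicate. With canonical lengths the order was B2M, HLA-C, HLA-B, TAPBP, HLA-E, TAP1, TAP2, HLA-F and NLRC5, again with 7 of 8 pairs apart. There TAPBP and HLA-E were 1.05-fold apart and changed places between replicates. Genes measured in the same 3 libraries are not groups of samples, and an exact sign-flip test over 3 pairs cannot give a two-sided p under 0.25, so none was used.

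Replicate 3 stood apart from the others across the whole table. It held 11166546 reads on annotated genes, against 15273329 and 15446347, and the RNA of the signal recognition particle, RN7SL1, took 15.1% of its TPM, against 4.93% and 5.66%. Protein-coding genes without the mitochondrial ones held 73.6% of TPM in replicate 3, against 85.5% and 84.1%. Since TPM is relative, each class I value was also rescaled to the protein-coding total.

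In the deposited values 8 of the 9 class I genes were lower in replicate 3 than in both others, as were 69.5% of all genes of at least 1 TPM and 78.5% of the protein-coding ones. HLA-F was the exception, with its highest value in replicate 3. The median log2 ratio of replicate 3 to the mean of replicates 1 and 2 was -0.18 over the 9 genes and -0.24 over expressed protein-coding genes. NLRC5 had the lowest of these ratios at -0.44 and HLA-F the highest at 0.10. After rescaling, 2 of the 9 genes were lower in replicate 3 than in both others, beside 42.8% of the expressed protein-coding genes. The median log2 ratio was then 0.03, with B2M at 0.10, HLA-F at 0.31 and NLRC5 at -0.24. Scaling thus moved all protein-coding values alike, and the place of each class I gene among them stayed the same.

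**Figure D4:**
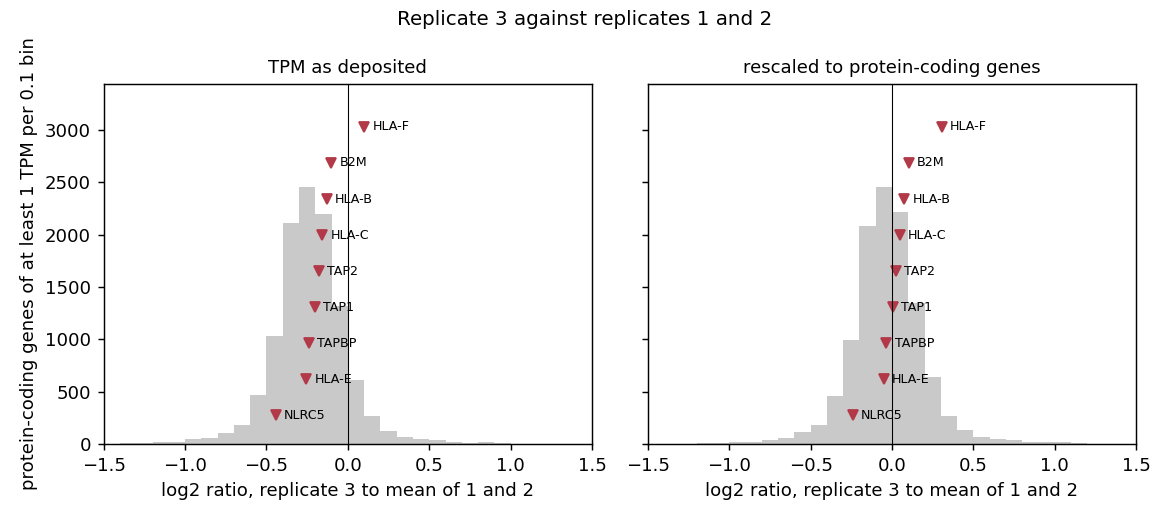
Log2 ratio of replicate 3 to the mean of replicates 1 and 2 for the 9 class I genes (triangles, height without meaning) over the distribution of the 11347 expressed protein-coding genes (grey bars, genes per bin of 0.1), as deposited and after rescaling to protein-coding genes. Most class I genes lie left of 0 as deposited and around 0 after rescaling, with NLRC5 at the low and HLA-F at the high end in both.

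The spread between replicates, as the SD of log2(TPM + 1), had a median of 0.10 over the 9 genes and ran from 0.07 for B2M, HLA-B and HLA-F to 0.23 for NLRC5. Over expressed protein-coding genes the median was 0.16. After rescaling, the medians were 0.05 for the 9 genes and 0.11 for expressed protein-coding genes, or 0.09 for the 8351 genes of at least 10 TPM. To set this spread beside counting error, a chi-square test set the reads of each gene against equal TPM in the 3 libraries, with p adjusted by Benjamini-Hochberg over 15802 genes. The adjusted p was under 0.05 for 6 of the 9 genes, against 54.3% of all genes tested and 65.3% of the expressed protein-coding ones, and the test compares libraries, not conditions. The 6 were B2M, HLA-C, HLA-E, TAPBP, TAP1 and NLRC5, and the adjusted p was 0.133 for HLA-B, 0.0925 for TAP2 and 0.812 for HLA-F. Without replicate 3 the count was 1 of 9, and no share over all genes is given here for that setting. After rescaling to protein-coding genes it was also 1, B2M with an adjusted p of 0.000211, against 32.4% of all genes tested and 37.4% of the expressed protein-coding ones. For the other 8 genes the adjusted p then lay between 0.166 and 0.904.

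The genes around the 9 were taken from lists of the steps before and after peptide loading. All 8 genes of the list for peptide loading and trimming reached 1 TPM, beside 56.6% of protein-coding genes. The chaperones that fold class I and many other glycoproteins were the highest, with CALR at 1311 ± 180 TPM, CANX at 724 ± 71.4 TPM, HSPA5 at 478 ± 60.7 TPM and PDIA3 at 322 ± 24.2 TPM. UGGT1, which marks misfolded glycoproteins and works with TAPBPL, was at 59.5 ± 3.60 TPM. The aminopeptidases that trim peptides to length were lower, with ERAP1 at 13.99 ± 1.11 TPM and ERAP2 at 3.40 ± 0.692 TPM. The general chaperones were thus above all 4 heavy chains, and TAPBPL, ERAP1 and ERAP2 were below TAP2.

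The proteasome supplies the peptides, and its constitutive catalytic subunits were far above the immunoproteasome subunits that replace them under interferon. PSMB5, PSMB6 and PSMB7 were at 235 ± 27.3, 213 ± 38.5 and 332 ± 17.2 TPM. PSMB8 was at 37.2, 37.8 and 32.8 TPM, a mean of 35.9 ± 2.74 TPM, and PSMB10 was at 3.66 ± 1.25 TPM. The summed immunoproteasome subunits, PSMB9 included, were 0.0472, 0.0536 and 0.0553 of the summed constitutive ones. The ratio was 0.0520 ± 0.00429, and 0.102 ± 0.00682 with canonical lengths. PSMB8 stood at 0.153 ± 0.00732 of PSMB5, the subunit whose place it takes, and PSMB9 at 0.00402 of PSMB6. With canonical lengths these ratios were 0.303 ± 0.0145 and 0.0101, and PSMB8 was at 62.0 TPM. The value of PSMB10 is uncertain, because 56.1% of its bases also belong to a second gene read in the same direction. The activator subunits PSME1 and PSME2 were at 119 ± 7.66 and 59.9 ± 7.35 TPM. With canonical lengths PSME1 was at 114 TPM and PSME2 at 171 TPM, so their order was reversed.

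Genes of the route by which interferon reaches the class I genes were present, and the 7 listed ligands had few or no reads. All 14 genes listed for the signal reached 1 TPM by the mean, beside 56.6% of protein-coding genes. They ran from IRF9 at 1.41 ± 0.603 TPM to IFNGR2 at 166 ± 21.7 TPM. IRF9 had 93.1% of its transcript held in common with a neighbour and a value of 3.27 TPM with canonical lengths. JAK1 was at 43.1 ± 2.59 TPM, and IRF1, which can bind the response element core, at 6.37 ± 0.384 TPM. Its binding to the promoters printed above was not tested. The 7 interferon genes listed were IFNG, IFNB1, IFNK, IFNE, IFNL1, IFNL2 and IFNL3, and the IFNA genes were not among them. None of the 7 reached 1 TPM by the mean. Of these, 6 had 0 reads in every replicate, where 3 reads in a library would correspond to between 0.495 and 0.776 TPM. The highest was IFNE, an epithelial type I interferon, at 0.644, 1.25 and 1.06 TPM.

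The MHC class II pathway, which serves extracellular peptides in professional antigen-presenting cells, was near the limit of these libraries. Of its 12 genes 2 reached 1 TPM, beside 56.6% of protein-coding genes. They were HLA-DMA at 1.29 ± 0.310 TPM and HLA-DOB at 1.29 ± 0.280 TPM, and 45.2% of the HLA-DOB transcript is shared with the readthrough gene named above. HLA-DRA had 13 reads in all and levels of 0.154, 1.20 and 0.725 TPM, on both sides of 1 TPM. CD74, the invariant chain, was at 0.346 TPM (0.523 TPM with canonical lengths), and 4 genes of the list had 0 reads. All 9 class I genes were above every class II gene in each replicate.

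Of 14 class I-like molecules and ligands of the activating receptor NKG2D, 10 reached 1 TPM, beside 56.6% of protein-coding genes. PROCR, the endothelial protein C receptor, was the highest at 133 ± 9.41 TPM, above HLA-E, HLA-B and HLA-F in the deposited values. The stress-induced NKG2D ligand MICA was at 51.8 ± 7.57 TPM, close to HLA-B in the deposited values. The 4 genes under 1 TPM were ULBP1 with 0 reads, RAET1L at 0.390 TPM, the neonatal Fc receptor FCGRT at 0.0460 TPM and AZGP1 at 0.0312 TPM.

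Genes that act on class I after transcription or on its chromatin were mostly expressed. Of 7 genes linked to class I turnover 6 reached 1 TPM, beside 56.6% of protein-coding genes. TMEM127 was the highest of the 7 at 34.9 ± 3.78 TPM, and the ubiquitin ligase MARCHF4 did not reach 1 TPM, at 0.134 TPM. The core subunits of Polycomb repressive complex 2, which can silence class I genes in tumours, were at 60.0 ± 6.67 TPM for SUZ12, 41.8 ± 6.73 TPM for EZH2 and 37.2 ± 4.19 TPM for EED.

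**Figure D5:**
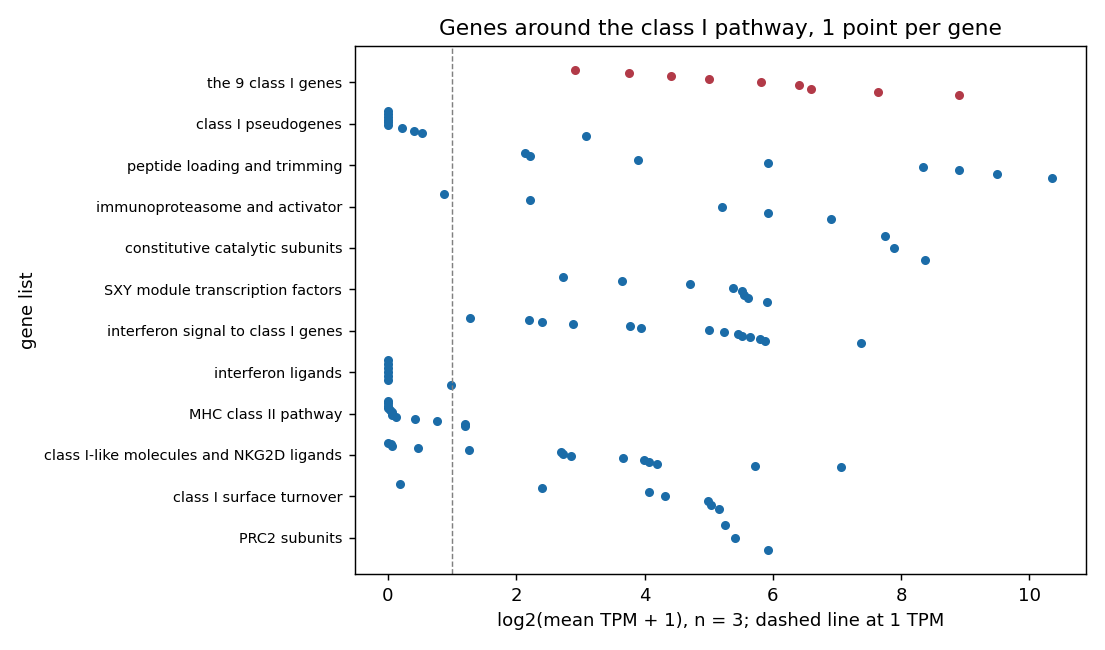
Mean level, as log2(mean TPM + 1) over 3 replicates, of the 9 class I genes (red) and of the genes of 11 lists around the pathway (blue), with 1 point per gene and a dashed line at 1 TPM. The factors of the SXY module and the interferon signal lie right of the line, and the interferon ligands, most class I pseudogenes and most class II genes lie left of it.

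For each class I gene the protein-coding gene outside the lists with the most similar values was sought, by the largest absolute difference in log2(TPM + 1) over the 3 replicates. B2M was nearest to SQLE at 0.04, HLA-C to SNX3 at 0.04 and HLA-B to CYREN at 0.03. TAP2 and SNX13 were the nearest of the 9 pairs at 0.02. HLA-E paired with CRYBG1, TAPBP with DPP9, TAP1 with TMEM185B, HLA-F with CLIC2 and NLRC5 with ZNF827. With only 3 samples of 1 condition this likeness describes level and the shift of replicate 3, and it was given no test.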

How the data were processed

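The 3 RNA-seq libraries came from untreated, empty-vector MCF10A cells. The authors deposited 1 table of TPM values for 62754 genes, used here as it stands, with each replicate summing to 1000000. Per the submitters' processing notes STAR, fastp and MultiQC were among the tools and hg38 and GRCh38.p14 among the genome builds. Tool versions, annotation release and use of strand are not given in the sources used here. Columns were assigned by library name, with 0 value columns unused. Replicates were not pooled in the table.

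Annotation came from GENCODE release 44, where 62700 genes were found by identifier and 54 were not. Multiplying TPM by longest-transcript length, less 1 base per exon, and dividing by the smallest step in a replicate gave whole reads for 100% of values (tolerance 0.01). Reads were redistributed over canonical transcript lengths for comparison. Genes with 0 reads were given a limit of 3 reads, and such limits cover counting error only. Promoters were from RefSeq and other sequence from hg38. Spread was the SD of log2(TPM + 1).

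Reads of genes with at least 15 reads were compared between libraries by chi-square with Benjamini-Hochberg adjustment, at a threshold of 0.05. The 9 genes and all 18 lists (138 genes, all found by symbol) were chosen with earlier results of these data known. Named genes are the 9, all genes of the short lists (heavy chains, loading, proteasome), and from the other lists the highest gene and any group of 5 or fewer above or below 1 TPM. Further genes of the lists were named after their values were seen. For 2 genes of the lists no value is reported here. Alternatives covered leaving out each replicate, scaling, gene length, cutoff, pseudocount and filter. On simulated reads for 62700 genes, 100% of reads were returned from TPM, 100% of 200 genes changed 4-fold were called, and 5.17% of 15635 unchanged genes had an unadjusted p under 0.05. The scripts ran in Python 3.11.15 (scipy 1.17.1, numpy 2.4.6, pandas 2.3.3), with matplotlib 3.10.9 for plots.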

Additional observations from a re-analysis of the deposited data

How the results depend on the processing

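All 9 class I genes stayed at or above 1 TPM under every setting tried. The median level of 55.3 TPM became 68.3 TPM with rescaling to protein-coding genes, 77.9 TPM with canonical lengths and 77.0 TPM with canonical lengths without bases shared on the same strand, a setting chosen after seeing the data. With these last 2 settings the ratio of B2M to the 4 heavy chains moved from 1.33 to 2.49 and 2.49, HLA-B to HLA-C from 0.280 to 0.530 and 0.530, and immunoproteasome to constitutive subunits from 0.0520 to 0.102 and 0.108. TAP1 to TAP2 moved from 1.53 to 0.926 without the shared bases. These shifts follow from the lengths alone, since reads were the same. Genes lower in replicate 3 went from 8 to 2 after rescaling. Genes whose reads differed between libraries went from 6 to 1 after rescaling, and leaving out each replicate gave between 1 (without replicate 3) and 5. Shares over all genes are not given for the runs without a replicate, so those counts are not read as a trait of the class I genes. The class II count went from 2 to 0 at a cutoff of 2 TPM. Leaving out a replicate gave ranges of 54.2 to 56.9 TPM for the median level, 0.05 to 0.12 for the median spread, 1.31 to 1.35 for B2M to heavy chains, 1.48 to 1.57 for TAP1 to TAP2, 0.278 to 0.284 for HLA-B to HLA-C, 0.0504 to 0.0544 for the proteasome ratio, and 7 to 8 neighbouring pairs apart. No paired analysis was possible because the replicates form a single condition. With 3 libraries of that condition, a spread between cultures cannot be told apart from that between libraries, and genes such as PSMB9 and HLA-DRA, with 34 and 13 reads in all, are limited by depth.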
